A study of Triticum aestivum with 23 samples.

Results

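Genes that lay above every control genotype in 1 of the dwarf *tabri1* triple mutants of wheat and below every control genotype in the other were taken from RNA-seq of whole shoots. The set holds 200 genes of 106838 high-confidence gene models that could be chosen. In 184 genes *tabri1-a1bd* was higher and *tabri1-a2bd* lower than the controls, and in 16 genes *tabri1-a2bd* was higher and *tabri1-a1bd* lower. The level of a gene in a genotype was log2(mean TPM + 0.5), where TPM is the share of a library's transcripts that a gene holds, corrected for gene length and scaled to a fixed total. A gene was taken when its level in either dwarf was at least 0.8 above the highest, and its level in the other dwarf at least 0.8 below the lowest, of the levels in *TaBRI1-NS*, Cadenza and *tabri1-bd*. Both thresholds were met by 345 genes, 317 in the first direction and 28 in the second, and the 200 with the largest smaller shift were kept. The last gene kept, TraesCS5D03G0992800, had a smaller shift of 0.967 and the first left out, TraesCS5D03G0812200, of 0.965. In the second direction the last gene kept was TraesCS2D03G0435100, at 0.98, and the first left out TraesCS6D03G0024800, at 0.96.

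Brassinosteroids (BRs) are steroid hormones of plants that promote the elongation of stems and leaves. They are perceived at the cell surface by BRASSINOSTEROID INSENSITIVE 1 (BRI1), a receptor kinase, and loss of this receptor gives dwarf plants in many species. Active receptors keep BZR transcription factors in the nucleus, and these repress the genes of BR synthesis, so that the hormone limits its own production. Hexaploid wheat carries a *TaBRI1* gene on each of its A, B and D subgenomes.

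The 23 libraries came from whole shoots of seedlings with leaf 2 emerged, here leaf stage 2, grown at a constant 21 °C in a 24 h photoperiod. There were 3 libraries of *tabri1-a1bd* and 4 of each other genotype, and many plants were pooled in each replicate. All 3 triple mutants share the b and d alleles with the double mutant *tabri1-bd*, and these alleles and a1 hold premature stop codons. The a2 and a3 alleles carry amino acid substitutions in *TaBRI1-A* and came from a second mutagenesis of *tabri1-bd*, each as a single line, so that other mutations of those lines cannot be told apart from the allele. The a1, b and d alleles each came from a line of an earlier mutagenesis, backcrossed 3 times to Cadenza to reduce other mutations. Any that remained cannot be told apart from those alleles either. *TaBRI1-NS* is the null segregant with wild-type *TaBRI1* genes from the population that gave *tabri1-a1bd* and *tabri1-bd*, and Cadenza is the parent cultivar. The 12 libraries of *TaBRI1-NS*, Cadenza and *tabri1-bd* are called the control libraries.

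Libraries held from 22032241 to 37423143 reads, as recovered from the TPM. TPM do not show which allele a plant carries. In each triple mutant the mean TPM of *TaBRI1-A*, *TaBRI1-B* and *TaBRI1-D* was above that in each control genotype. For *TaBRI1-B* the lowest library was at 4.93 TPM in *tabri1-a1bd*, 5.09 TPM in *tabri1-a2bd* and 5.64 TPM in *tabri1-a3bd*. Each overlapped with Cadenza, which reached 6.05 TPM. For *TaBRI1-A* only *tabri1-a1bd* overlapped with the controls, at a lowest 4.68 TPM against up to 5.39 TPM in *tabri1-bd*. *TaBRI1-D* showed no such overlap. In *tabri1-bd* the means of the A, B and D genes were 4.9, 4.34 and 6.92 TPM, against 4.49, 4.07 and 6.84 TPM in *TaBRI1-NS*. The libraries of *tabri1-bd* and *TaBRI1-NS* overlapped. No marker genes of the tissue were named in the tables used, so the labelled tissue was not checked. The *tabri1-a1bd* libraries stood apart from each other in the genes described here. Without replicate 1 of this genotype, 205 genes met both thresholds in the first direction and 21 in the second, and 127 of the 184 and 11 of the 16 genes kept were still among them. In whole shoots, more RNA per cell and more cells of a kind cannot be told apart. No gene symbols or sequences were paired with these identifiers in the tables used, so genes are given by identifier, whose first letters hold the chromosome in the IWGSC RefSeq v2.1 annotation.

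The 184 genes higher in *tabri1-a1bd* lay further above the controls in that mutant than below them in *tabri1-a2bd*. The genes were selected on their mean TPM in these 2 mutants and the 3 control genotypes, so these values are a description, with no test. The shift upwards had a median of 1.96 on the log2 scale (0.97 to 6.28) and the shift downwards a median of 1.19 (0.97 to 2.97), and the upward shift was the larger in 157 of the 184. The median over the genes of the genotype mean was 33.1 TPM in *tabri1-a1bd*, 5.59 TPM in *TaBRI1-NS*, 5.18 TPM in Cadenza, 4.14 TPM in *tabri1-bd*, 2.41 TPM in *tabri1-a3bd* and 1.47 TPM in *tabri1-a2bd*. In *TaBRI1-NS* the genes covered a range of mean levels from 0.699 to 252 TPM, 60 of them at 10 TPM or more. The largest upward shift belonged to TraesCS2A03G1032600, at 121 TPM in *tabri1-a1bd*, 1.07 TPM in *TaBRI1-NS* and 0.0496 TPM in *tabri1-a2bd*. This gene was named after its values were seen. The plot of shifts shows the upward shifts spread over a wider range than the downward ones. A mean TPM cannot be negative, so the constant added before taking log2 caps the downward shift, most tightly in genes low in the controls. The upward shift has no such cap. The part of the cap in these differences was not tested.

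**Figure D1:**
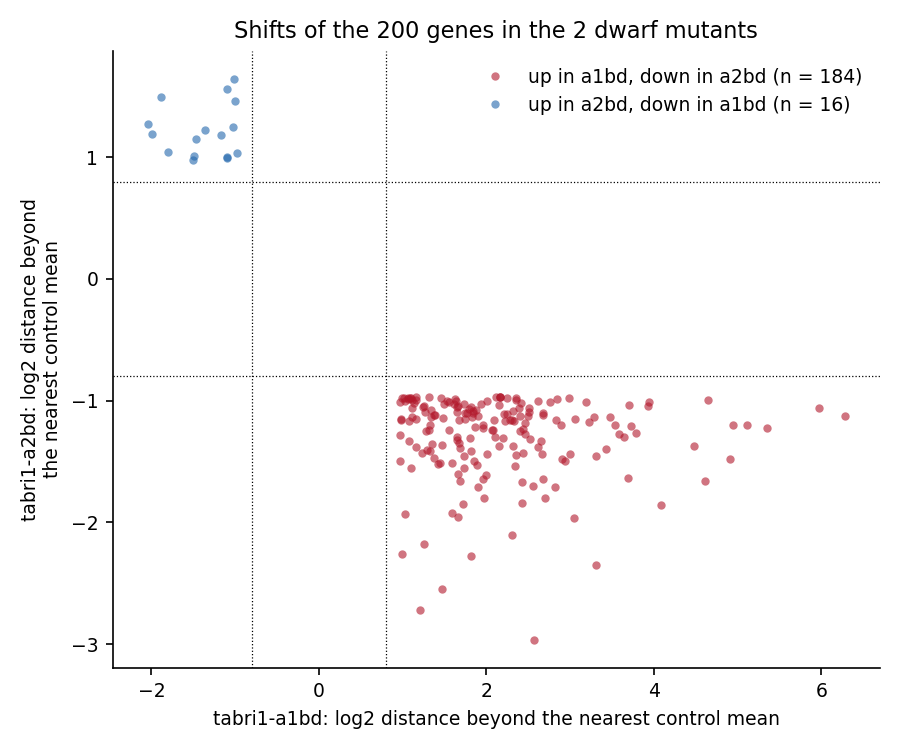
Log2 distance of each of the 200 genes from the nearest control mean in *tabri1-a1bd* (horizontal axis) and in *tabri1-a2bd* (vertical axis), on the log2(mean TPM + 0.5) scale, with dotted lines at the threshold of 0.8 in either direction. The 184 genes at the lower right reach 6.28 upwards in *tabri1-a1bd* and 2.97 downwards in *tabri1-a2bd*, and the 16 genes at the upper left stay within 1.64 upwards in *tabri1-a2bd* and 2.04 downwards in *tabri1-a1bd*.

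Not every library carried the shift of its mean. All 3 *tabri1-a1bd* libraries lay above the 12 control libraries for 113 of the 184 genes, against 15.8% of the 61961 high-confidence genes that reached 0.5 TPM in at least 3 libraries. For 51 genes 2 libraries did so and for 20 genes a single library. All 4 *tabri1-a2bd* libraries lay below the controls for 83 genes (3.78% of the high-confidence genes), and both conditions held for 58 genes (0.36%). The *tabri1-a1bd* libraries lay above all 4 of *tabri1-a2bd* for 182 genes (20.4%). These shares follow from the choice of the genes and are not evidence for it.

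The genes varied together among libraries of the same genotype. In *tabri1-a1bd* replicate 1 held the highest value in 178 of the 184 genes and replicate 3 the lowest in 167. The full order, replicate 1 over 2 over 3, was seen in 163 genes, or 88.6%, against 20.9% of all high-confidence genes. The rule used the mean TPM of these libraries, so a high replicate 1 could admit a gene. This order is partly set by the choice of the genes and is a description. Relative to the mean of the control libraries, the median of the genes was 3.21 in replicate 1, 1.86 in replicate 2 and 1.18 in replicate 3 on the log2 scale, so that the 3 libraries covered a range of more than 2 log2 units, all above the controls.

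The control libraries were also spread for these genes. The *TaBRI1-NS* medians were 0.45 and 0.70 in replicates 1 and 3, and -0.46 and -0.32 in replicates 2 and 4. In 138 genes (75.0%) both of the former libraries lay above both of the latter, against 22.2% of the high-confidence genes. In *tabri1-bd* replicates 1 and 2 lay above 3 and 4 in 132 genes (71.7%, against 20.7%). These orders were noticed in the data and are descriptions. The median SD of log2(TPM + 0.5) among *TaBRI1-NS* libraries was 0.71 for the 184 genes, and in *tabri1-a1bd* it was 1.09. Recovered reads were 34486455, 33066319 and 29189068 in *tabri1-a1bd* replicates 1 to 3, which is the same order as the medians. They were 31137043 and 36289227 in *TaBRI1-NS* replicates 1 and 3 against 26782442 and 30356993 in replicates 2 and 4, but 22032241 and 26706609 in *tabri1-bd* replicates 1 and 2 against 29306891 and 24473478 in replicates 3 and 4. The part of depth in these orders was not tested.

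**Figure D2:**
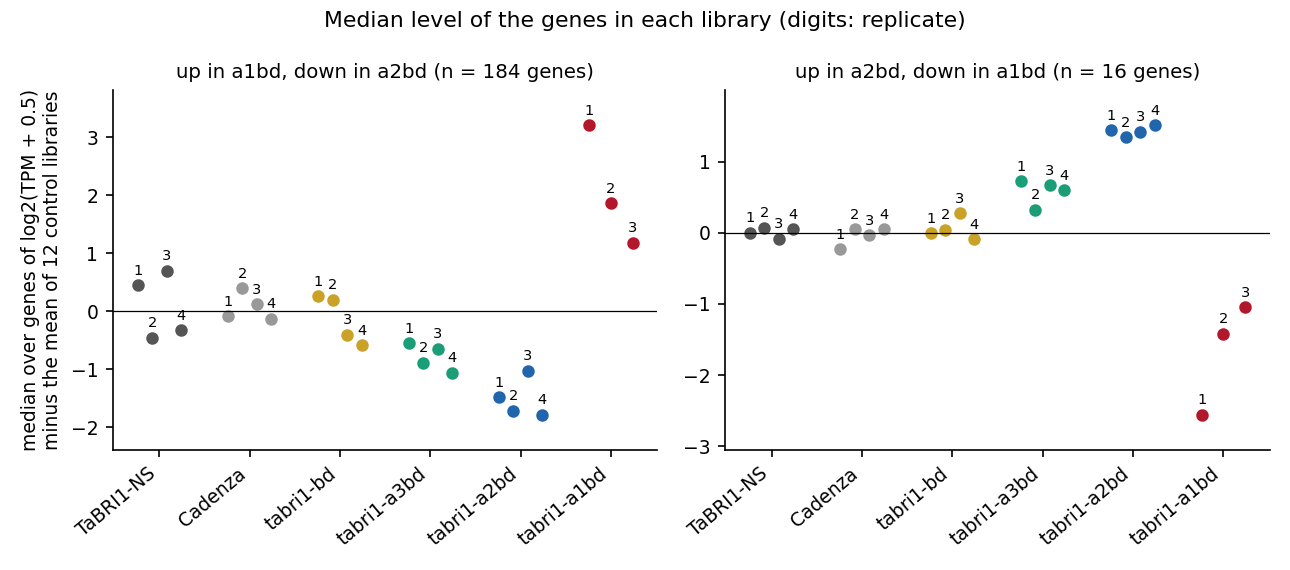
Median over the genes of log2(TPM + 0.5) minus the mean of the 12 control libraries, for each of the 23 libraries (points, with the replicate number above), for the 184 genes higher in *tabri1-a1bd* (left) and the 16 genes higher in *tabri1-a2bd* (right). On the left the *tabri1-a1bd* libraries spread from 3.21 to 1.18, and all *tabri1-a2bd* and *tabri1-a3bd* libraries lie below 0. So do several control libraries, down to -0.592 in *tabri1-bd* replicate 4, which is below *tabri1-a3bd* replicate 1 at -0.55. On the right replicate 1 of *tabri1-a1bd* is the lowest library at -2.56.

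Among genes whose libraries in both dwarfs lay clear of all controls, TraesCS3A03G0974700 had the largest smaller shift. It was at 686, 331 and 192 TPM in *tabri1-a1bd*, at 5.68, 4.84, 8.49 and 3.72 TPM in *tabri1-a2bd*, at 57.2, 17.0, 64.8 and 21.5 TPM in *TaBRI1-NS*, and between 19.7 and 49.8 TPM in Cadenza and *tabri1-bd*. The lowest *tabri1-a1bd* library exceeded the highest control library, and the highest *tabri1-a2bd* library was below the lowest. The *tabri1-a1bd* mean was 10-fold the highest control mean, and the lowest control mean was 5.47-fold that of *tabri1-a2bd*.

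TraesCS2A03G0896400 was at 215, 93.4 and 41.2 TPM in *tabri1-a1bd*, at 3.33, 2.11, 2.07 and 0.661 TPM in *tabri1-a2bd* and at 14.4, 11.9, 17.3 and 11.3 TPM in *TaBRI1-NS*. The 3 groups did not overlap, with means 8.49-fold above the highest and 4.61-fold below the lowest control mean. TraesCS2B03G1337200 was at 174, 61.8 and 32.7 TPM in *tabri1-a1bd*, between 0.252 and 7.13 TPM in the control libraries, and listed at 0 in all 4 libraries of *tabri1-a2bd* and all 4 of *tabri1-a3bd*. It is among 7 of the 184 genes that were listed at 0 in every *tabri1-a2bd* library. No fold is given against a group at 0.

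Lower levels were seen in 4 further genes of this kind. TraesCS2D03G0836900 had means of 55.4 TPM in *tabri1-a1bd*, 8.08 TPM in *TaBRI1-NS* and 1.21 TPM in *tabri1-a2bd*. TraesCS5D03G0548700 was at 10.3, 2.7 and 0.39 TPM in the same order of genotypes, TraesCS4B03G0918900 at 16.2, 3.8 and 0.745 TPM, and TraesCS2D03G1216700 at 12, 2.63 and 0.279 TPM. All 4 had libraries in both dwarfs clear of the controls.

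Among the 4 most abundant genes were TraesCS1D03G0835000 and TraesCS6B03G1288000. TraesCS1D03G0835000 was at 1389, 346 and 215 TPM in *tabri1-a1bd* and at 19.2, 12.7, 28.4 and 13.1 TPM in *tabri1-a2bd*, against 136, 52.2, 171 and 80.8 TPM in *TaBRI1-NS*. TraesCS6B03G1288000 was at 922, 238 and 174 TPM in *tabri1-a1bd* and at 6.46, 4.61, 43.8 and 10.4 TPM in *tabri1-a2bd*, against 95.1, 38.4, 148 and 48.1 TPM in *TaBRI1-NS*. In both genes the *tabri1-a1bd* libraries lay above all controls, but a *tabri1-a2bd* library lay within the range of the control libraries. Replicate 1 alone set much of the *tabri1-a1bd* mean, which was 650 ± 643 TPM (SD, n = 3) in the first gene and 445 ± 415 TPM in the second.

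Functional terms could be given to 8 of the 184 genes and to none of the 16, from term lists that the study drew up on genes changed in these same samples. The terms are labels here, and only 74 of 138 lists were whole in the copy used. Genes with the term systemic acquired resistance, a state of raised defence that spreads through a plant after a local infection, were TraesCS3D03G0911100 and TraesCS3B03G1121500. TraesCS3D03G0911100, the most abundant of the 200 genes, was at 1685, 714 and 414 TPM in *tabri1-a1bd*, at 76.0, 55.4, 77.5 and 56.0 TPM in *tabri1-a2bd*, at 338, 191, 349 and 130 TPM in *TaBRI1-NS* and at 210, 167, 212 and 130 TPM in *tabri1-a3bd*. Neither dwarf overlapped with the controls, while *tabri1-a3bd* did. TraesCS3B03G1121500 was at 740, 299 and 163 TPM in *tabri1-a1bd* and at 12.8, 12.8, 36.9 and 13.4 TPM in *tabri1-a2bd*, against 73.0, 28.0, 100 and 47.5 TPM in *TaBRI1-NS*. Its replicate 3 in *tabri1-a2bd* lay within the range of the controls.

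TraesCS4A03G1017200 carries the term for chlorophyllide a oxygenase, the enzyme that makes the precursor of chlorophyll b. It was at 134, 67.0 and 47.6 TPM in *tabri1-a1bd* and at 4.68, 4.47, 4.74 and 3.45 TPM in *tabri1-a2bd*, against 35.6, 39.5, 34.7 and 29.4 TPM in *TaBRI1-NS*. The *tabri1-a2bd* libraries were close to each other and far below every control, at a mean 7.23-fold under the lowest control mean. In *tabri1-a3bd* it was at 33.0, 37.0, 38.4 and 36.0 TPM, within the range of the control libraries.

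TraesCS4A03G0118900, with the term carboxylic acid biosynthetic process, had the same shape. It was at 93.5, 79.1 and 45 TPM in *tabri1-a1bd*, between 6.95 and 8.63 TPM in *tabri1-a2bd* and between 15.6 and 23.9 TPM in the control libraries. TraesCS3D03G1053700 has the term beta-glucosidase activity, which includes enzymes that free stored defence compounds from their sugar. It was at 276, 91.7 and 45.6 TPM in *tabri1-a1bd*, between 1.69 and 4.5 TPM in *tabri1-a2bd* and between 4.69 and 19.5 TPM in the controls. Both genes had no overlap between the dwarfs and the controls. TraesCS3D03G0336300 and TraesCS3A03G0346300, both with the term for transport of aromatic amino acids, had means of 10.9 and 10.2 TPM in *tabri1-a1bd* and of 0.315 and 1.77 TPM in *tabri1-a2bd*. The former had no overlap between the dwarfs and the controls. For TraesCS3A03G0346300, replicate 3 of *tabri1-a1bd* at 4.23 TPM and replicate 3 of *tabri1-a2bd* at 3.33 TPM lay within the range of the controls. TraesCS2A03G1180200, with the term DNA catabolic process, was at 49.3 ± 33.2 TPM (SD, n = 3) in *tabri1-a1bd* and 3.56 ± 1.31 TPM (n = 4) in *tabri1-a2bd*.

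**Figure D3:**
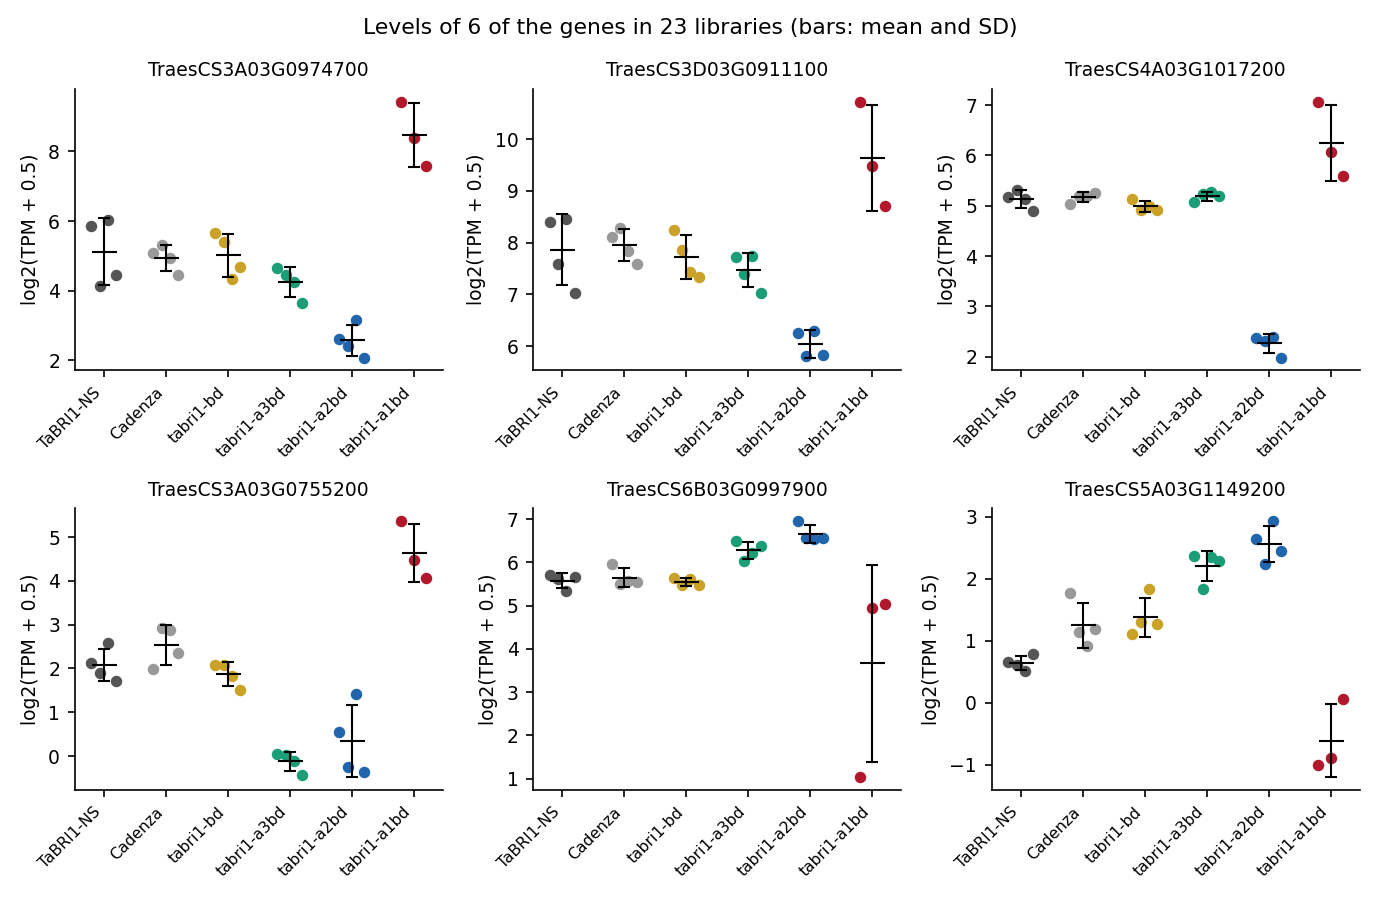
Log2(TPM + 0.5) in each library (points) with the mean and SD per genotype (bars) for 4 genes higher in *tabri1-a1bd* (TraesCS3A03G0974700, TraesCS3D03G0911100, TraesCS4A03G1017200 and TraesCS3A03G0755200) and 2 genes higher in *tabri1-a2bd* (TraesCS6B03G0997900 and TraesCS5A03G1149200). The *tabri1-a3bd* libraries lie with the controls for TraesCS4A03G1017200, where they are at 33.0 to 38.4 TPM, but beside those of *tabri1-a2bd* for TraesCS3A03G0755200, where they are at 0.244 to 0.528 TPM.

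The rule did not use position. Of the 184 genes, 29 stood next to another of them in the order of high-confidence identifiers, in 13 runs, and none of the 16 did. No matching count was made for other genes. In the run TraesCS5A03G0009400, TraesCS5A03G0009500 and TraesCS5A03G0009700 the means were 88.2, 72.2 and 30.3 TPM in *tabri1-a1bd* and 5.06, 1.92 and 0.793 TPM in *tabri1-a2bd*. In TraesCS5D03G0011700, TraesCS5D03G0011800 and TraesCS5D03G0012000 they were 36.1, 82.0 and 90.3 TPM and 1.34, 3.23 and 1.54 TPM. In each of these 6 genes replicate 1 was the highest of *tabri1-a1bd* and replicate 3 the highest of *tabri1-a2bd*. Another 3 neighbours on chromosome 5D, TraesCS5D03G1073700, TraesCS5D03G1073800 and TraesCS5D03G1074200, had means of 68.8, 50.5 and 88.3 TPM in *tabri1-a1bd* and of 2.93, 2.28 and 5.48 TPM in *tabri1-a2bd*. TraesCS5D03G0980700 and its neighbour TraesCS5D03G0980800 were at 468, 106 and 64.0 TPM and at 262, 85.2 and 53.7 TPM in *tabri1-a1bd*. The other runs were pairs, with genes such as TraesCS4A03G0657600 and TraesCS4A03G0657700. Neighbours of like sequence can share reads, and the counting options were not given in the sources used here, so such genes may not be independent. Chromosome 5D held 20 of the 184 genes (10.9%, against 5.53% of the high-confidence genes tested), chromosome 3D 16 (8.70%, against 5.12%) and chromosome 6D 1 (0.543%, against 3.85%). By subgenome 67 lay on A (36.4%, against 33.6%), 47 on B (25.5%, against 32.8%) and 70 on D (38.0%, against 33.3%).

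The 16 genes higher in *tabri1-a2bd* had a median shift upwards of 1.19 (0.98 to 1.64), below the 1.96 of the genes higher in *tabri1-a1bd*. Their median shift downwards was 1.27 (0.98 to 2.04), against 1.19 in the genes higher in *tabri1-a1bd*. The median of the genotype means was 9.35 TPM in *tabri1-a2bd*, 5.14 TPM in *tabri1-a3bd*, 2.96 TPM in *TaBRI1-NS* and 0.808 TPM in *tabri1-a1bd*. All *tabri1-a2bd* libraries lay above the controls for 12 of the 16 (3.11% of the high-confidence genes), all *tabri1-a1bd* libraries lay below them for 10 (16.8%), and both held for 8 (0.323%). The *tabri1-a2bd* libraries were close to each other, with medians of 1.34 to 1.51 above the control mean. In *tabri1-a1bd* replicate 1 was the lowest library, at -2.56, against -1.42 and -1.05 in replicates 2 and 3. The order replicate 1 under 2 under 3 held in 11 of the 16 genes (68.8%), against 30.2% of the high-confidence genes. The rule used the mean of these libraries too, so this order is a description.

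TraesCS6B03G0997900, the most abundant of the 16, was at 1.55, 30.1 and 32.1 TPM in *tabri1-a1bd*, at 123, 93.7, 92.1 and 93.7 TPM in *tabri1-a2bd* and between 39.8 and 61.9 TPM in the control libraries. No dwarf library overlapped with the controls, although replicate 1 of *tabri1-a1bd* lay far below the other two. TraesCS3D03G0866800 was at 0.943, 3.90 and 5.33 TPM in *tabri1-a1bd*, at 26.5, 34.4, 24.4 and 31.7 TPM in *tabri1-a2bd* and between 8.23 and 15.5 TPM in the controls. TraesCS4B03G0768500 was at 0.380, 2.96 and 6.78 TPM in *tabri1-a1bd*, at 30.8, 24.8, 28.6 and 29.4 TPM in *tabri1-a2bd* and between 5.35 and 10.8 TPM in the controls, so that replicate 3 of *tabri1-a1bd* was its only dwarf library within their range.

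TraesCS5A03G0802100 was at 0, 0.706 and 2.04 TPM in *tabri1-a1bd*, at 17.6, 20.7, 16.1 and 17.4 TPM in *tabri1-a2bd* and between 3.34 and 7.93 TPM in the controls. TraesCS1D03G0956300, with the largest smaller shift of the 16, was at 0, 0.0853 and 2.92 TPM in *tabri1-a1bd* and between 16.4 and 19.0 TPM in *tabri1-a2bd*, and its replicate 3 in *tabri1-a1bd* lay within the controls. Genes at lower levels with no overlap were TraesCS4B03G0949700, TraesCS3A03G0895300 and TraesCS5A03G0560600, at 7.11, 3.83 and 7.78 TPM in *tabri1-a2bd* and 0.192, 0.167 and 0.700 TPM in *tabri1-a1bd*. The last gene kept, TraesCS2D03G0435100, was listed at 0 in all *tabri1-a1bd* libraries and in 2 of 4 *tabri1-a2bd* libraries, and its shift rests on values of 3.15 and 3.86 TPM.

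The rule left *tabri1-a3bd* out, so its levels could be tested. Against *TaBRI1-NS*, 45 of the 184 genes (24.5%) were lower in *tabri1-a3bd* and 0 were higher by limma when p was adjusted by Benjamini-Hochberg and held to 0.05 over all 80354 genes tested, of which 6.47% were called, 1.84% lower and 4.62% higher. The median log2 change of the 184 genes was -0.84 and 173 were below 0, against a median of 0.09 over all genes tested. These genes varied together among libraries of a genotype, so counts of them, here and against *tabri1-bd*, are not counts of independent observations. At an unadjusted p under 0.05, 104 genes were lower and 1 higher, and limma voom on the recovered reads called 35 lower and 0 higher. The direction was that of *tabri1-a2bd*, not that of *tabri1-a1bd*. The *TaBRI1-NS* and *tabri1-bd* libraries had also entered the rule as controls, so the comparison is independent in *tabri1-a3bd* alone. For most of the 184 genes the smaller shift was the downward one, measured from the lowest control mean. Control means that were high by sampling enlarge that shift and lower the change in *tabri1-a3bd*. The choice can thus favour a change below 0, and its part was not tested.

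The number of called genes depended on the libraries and the fit. It was 19 with all 23 libraries in the fit and 19 in a separate fit of both genotypes, and it fell to 21 without *TaBRI1-NS* replicate 3, to 27 without *TaBRI1-NS* replicate 1 and to 23 without *tabri1-a3bd* replicate 4. Over all genes, 3716 were called higher and 1480 lower, but 1845 higher and 2860 lower once TPM were rescaled by median-of-ratios size factors, under which 57 of the 184 were lower.

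Against *tabri1-bd*, the line from which *tabri1-a3bd* was derived, 23 of the 184 genes were lower and 0 higher (5.83% of all genes tested were called, 1.5% lower and 4.33% higher), with a median of -0.61 and 169 genes below 0. At an unadjusted p under 0.05, 75 genes were lower and 1 higher, and a separate fit of both genotypes called 22 lower and 1 higher. The 23 genes were all among the 45, which both comparisons share through the *tabri1-a3bd* libraries. The count was 9 with limma voom, which called 0 higher, 11 with all 23 libraries, 10 without *tabri1-bd* replicate 1 or replicate 2, 14 without *tabri1-bd* replicate 3 or *tabri1-a3bd* replicate 2, and 12 without *tabri1-a3bd* replicate 4. Rescaling moved the split over all genes from 3476 higher and 1208 lower to 1795 higher and 2402 lower.

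The smallest adjusted p of the 184 genes belonged to TraesCS4A03G0657600, at 10.8, 15.9, 17.1 and 16.6 TPM in *tabri1-a3bd* and at 48.9, 36.8, 78.4 and 63.5 TPM in *TaBRI1-NS* (log2 change -1.84, SE 0.25, limma adjusted p = 0.000347). The groups did not overlap, and its *tabri1-bd* libraries, at 26.8 to 48.6 TPM, also lay above *tabri1-a3bd*. TraesCS3A03G0755200 was at 0.528, 0.518, 0.417 and 0.244 TPM in *tabri1-a3bd* and at 3.83, 3.22, 5.44 and 2.79 TPM in *TaBRI1-NS* (log2 change -2.20, SE 0.31, limma adjusted p = 0.000571). Its *tabri1-a3bd* mean of 0.427 TPM was below the *tabri1-a2bd* mean of 0.936 TPM.

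TraesCS6B03G1288000 was at 8.13, 4.53, 4.55 and 1.12 TPM in *tabri1-a3bd*, below every *TaBRI1-NS* library (log2 change -4.05, SE 0.64, limma adjusted p = 0.00123). TraesCS1A03G0047200 was at 1.01, 0.366, 0 and 0 TPM in *tabri1-a3bd* and at 14.3, 7.08, 16.5 and 6.06 TPM in *TaBRI1-NS* (log2 change -3.81, SE 0.59, limma adjusted p = 0.00107). TraesCS2A03G1195300 fell by 2.04 on the log2 scale, from 3.37 TPM in *TaBRI1-NS* to 0.479 TPM, while its *tabri1-a1bd* libraries were at 149, 93.9 and 81.9 TPM. All 4 *tabri1-a3bd* libraries lay below the 12 control libraries for 25 of the 184 genes (0.773% of the high-confidence genes) and above them for 0 (1.10%).

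Not all of the 184 genes were low in *tabri1-a3bd*. Its mean lay below all 3 control means for 158 genes, against 21.9% of the high-confidence genes, and above all of them for 5 genes, against 33.5%. It lay below the *tabri1-a2bd* mean for 41 genes. The genes were chosen for a low *tabri1-a2bd* mean, so this last count is a description. The chlorophyllide a oxygenase gene TraesCS4A03G1017200 had a log2 change of 0.06 (SE 0.10) against *TaBRI1-NS* and the carboxylic acid gene TraesCS4A03G0118900 of -0.03 (SE 0.12), with limma adjusted p of 0.776 and 0.921. The changes of the systemic acquired resistance genes TraesCS3D03G0911100 and TraesCS3B03G1121500 were -0.40 (SE 0.28) and -0.23 (SE 0.37), with adjusted p of 0.423 and 0.768.

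**Figure D4:**
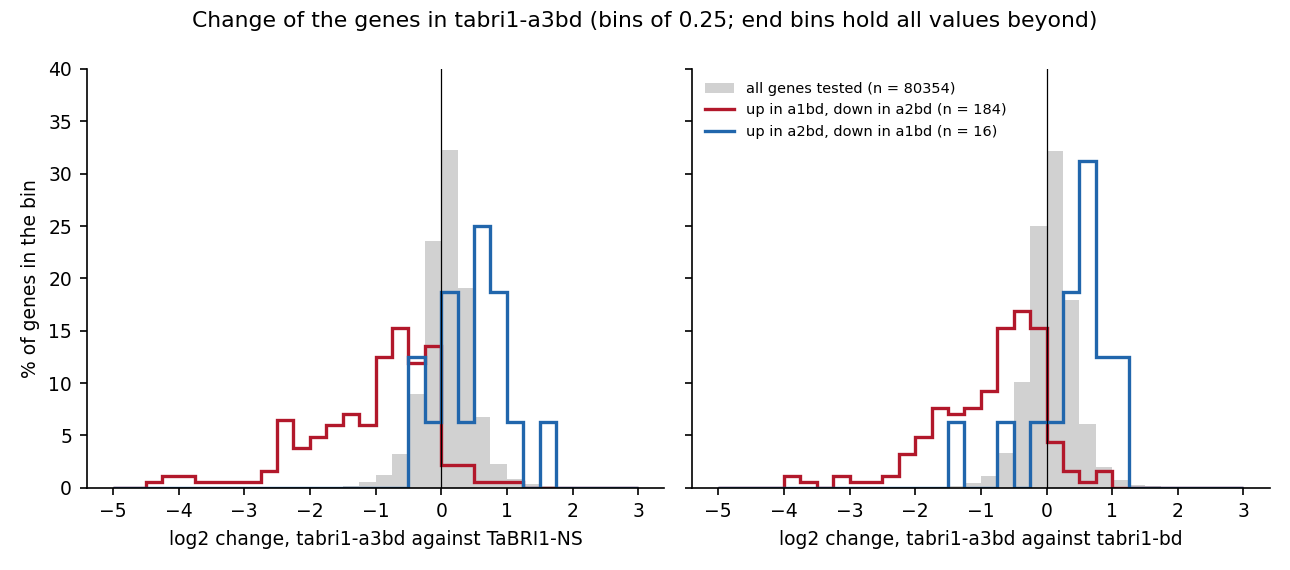
Share of genes in bins of log2 change of *tabri1-a3bd* against *TaBRI1-NS* (left) and *tabri1-bd* (right) for the 184 genes higher in *tabri1-a1bd* (red), the 16 genes higher in *tabri1-a2bd* (blue) and all 80354 genes tested (grey). The medians are -0.84 and -0.61 for the 184 genes and 0.51 and 0.60 for the 16 genes, and both pairs of groups overlap.

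Of the 16 genes, 4 were higher and 0 lower in *tabri1-a3bd* against *TaBRI1-NS* (25%, where 4.62% of all genes tested were higher), with a median log2 change of 0.51 and 3 genes below 0. At an unadjusted p under 0.05, 8 were higher and 0 lower, and limma voom called 3 higher and 0 lower. TraesCS5A03G1149200 was at 4.63, 3.08, 4.58 and 4.38 TPM in *tabri1-a3bd*, at 1.08, 1.02, 0.923 and 1.22 TPM in *TaBRI1-NS* and at 5.71, 4.22, 7.13 and 4.95 TPM in *tabri1-a2bd* (log2 change 1.57, SE 0.20, limma adjusted p = 0.000156). Its *tabri1-a3bd* libraries overlapped with those of *tabri1-a2bd* and not with *TaBRI1-NS*. TraesCS6B03G0997900 was at 89.6, 64.7, 73.5 and 82.1 TPM in *tabri1-a3bd*, above the 61.9 TPM of the highest control library (log2 change 0.69, SE 0.12, limma adjusted p = 0.00262). TraesCS3A03G0710100 and TraesCS2D03G0012800 were the others called, with log2 changes of 0.59 and 0.96 and limma adjusted p of 0.0493 and 0.0321.

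Against *tabri1-bd*, 5 of the 16 were higher and 1 lower, where 4.33% of all genes tested were higher and 1.5% lower, with a median of 0.60. TraesCS5A03G1149200, TraesCS6B03G0997900, TraesCS3A03G0710100, TraesCS4B03G0768500 and TraesCS3D03G0866800 were higher, by 0.83, 0.73, 0.69, 0.72 and 0.57 on the log2 scale. TraesCS4D03G0840000 was lower, at -1.33 (limma adjusted p = 0.0378). TraesCS2D03G0012800 and TraesCS4D03G0840000 were named after their values were seen. With all 23 libraries in the fit, 1 of the 16 was called higher against *TaBRI1-NS* and 0 against *tabri1-bd*, where limma gave 4 at an unadjusted p under 0.05 and limma voom called 5. The count against *TaBRI1-NS* was 2 without *TaBRI1-NS* replicate 3 or any of *tabri1-a3bd* replicates 1, 3 and 4, and 8 without *tabri1-a3bd* replicate 2, and against *tabri1-bd* it was 2 or 3 without *tabri1-bd* replicate 1, 2 or 4 or *tabri1-a3bd* replicate 1 or 3, and 8 without *tabri1-a3bd* replicate 2 or *tabri1-bd* replicate 3. In all 16 genes the *tabri1-a3bd* mean was below the *tabri1-a2bd* mean. The genes were chosen for a high *tabri1-a2bd* mean, which favours this outcome, so the count is a description.

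Genes of the BR pathway were left out by the rule, and none of 76 named by the study met the thresholds in either direction. Of the 67 that could be tested, 11 were called in *tabri1-a3bd* against *TaBRI1-NS*, each of them higher, where 4.62% of all genes tested were higher and 1.84% lower. Against *tabri1-bd*, 9 were higher and 1 lower at the same adjusted p over all genes, where 4.33% of all genes were higher and 1.5% lower. The number against *TaBRI1-NS* was 6 without *TaBRI1-NS* replicate 3 or *tabri1-a3bd* replicate 3, and 4 with all 23 libraries in the fit.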

How the data were processed

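RNA-seq of 23 libraries from 6 wheat genotypes was analysed. Per the submitters' processing notes and the methods, the authors used Trimmomatic 0.39 for trimming, STAR 2.7.8a for mapping (assembly IWGSC RefSeq v2.1) and HTSeq 0.11.3 for counting, and deposited TPM for every replicate. The counting options and gene lengths are not given in the sources used here. The authors used DESeq2 for their own comparisons. Libraries were grouped by the genotype in the labels.

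The members and lists were chosen with earlier results of these data known. Log2(TPM + 0.5) was fitted with limma 3.58.1 (R 4.3.3, lmFit and eBayes with trend and robust), with a term per genotype, on the 20 libraries other than *tabri1-a1bd*, whose libraries spread more than the others. Genes with at least 0.5 TPM in at least 3 of these libraries were kept, and all 200 genes passed. A log2 change on this scale understates that of low genes. Whole reads were recovered from the steps of the TPM for 99.992% of 94749 genes above 0 in at least 8 libraries (within 0.02 reads), and these genes hold at least 97.0% of the TPM of each library. Depth covers counting error only. On simulated data for *tabri1-a3bd* against *TaBRI1-NS*, with 80354 genes, 52 of 98 genes changed by 1 log2 unit, 83 of 102 changed by 2 and 11 unchanged genes were called. The simulated noise was independent between genes and had the same SD in all genotypes. The real genes varied together and with unequal spread, so the simulation does not give the number of false calls in the real data. Of the identifiers, 0 matched the gene name table, and terms came from lists of the study. Python 3.11.15 with numpy 2.4.6, pandas 2.3.3, numba 0.67.0 and matplotlib 3.10.9 was used.

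Genes were named by rule: in each direction the 8 with the largest smaller shift among those with no overlap between either dwarf and the controls, the 4 most abundant, the last inside and first outside the threshold, up to 5 with the smallest adjusted p in *tabri1-a3bd*, and neighbours in identifier order. Genes with a term are also named. P-values measure the spread between libraries made from pooled plants. Alternatives were other pseudocounts, filters, scalings, fits and libraries left out.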

Additional observations from a re-analysis of the deposited data

Results flagged for a closer look

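Among 270 groups of 4 libraries checked for the named genes and the medians of both sets, 15 had a library far from the other 3 on the log2 scale by Dixon's test at 95%, where chance flags about 1 group in 20. In *tabri1-a2bd* replicate 3 stood high for TraesCS5A03G0009500 (5.77 TPM, others 0.549 to 0.725), TraesCS5D03G1074200 (13.3 TPM, others 2.59 to 3.10) and TraesCS4A03G0657700 (6.39 TPM, others 1.62 to 1.72), replicate 1 stood high for TraesCS6B03G0997900 (123 TPM, others 92.1 to 93.7) and replicate 2 low for TraesCS5B03G1136500 (0.054 TPM, others 0.740 to 0.883). In *tabri1-a3bd* replicate 2 stood high for TraesCS2D03G0837000 (12.6 TPM, others 8.31 to 8.75) and low for TraesCS5A03G1149200 (3.07 TPM, others 4.38 to 4.63), replicate 4 low for TraesCS5D03G1073800 (0 TPM, others 1.40 to 1.71) and TraesCS4B03G0949700 (1.72 TPM, others 2.81 to 3.01), and replicate 1 low for TraesCS4A03G0657600 (10.8 TPM, others 15.9 to 17.1). In the controls, *TaBRI1-NS* replicate 1 stood low for TraesCS5A03G0802100 (5.18 TPM, others 7.76 to 7.93) and replicate 3 low for TraesCS2D03G0435100 (0 TPM, others 0.700 to 0.886). Cadenza replicate 1 stood high for TraesCS6B03G0997900 (61.9 TPM, others 45 to 47.1), and *tabri1-bd* replicate 3 stood low for TraesCS5B03G1136500 (1.21 TPM, others 2.21 to 2.31) and high for TraesCS3A03G0710100 (11.9 TPM, others 6.17 to 6.91).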

How the results depend on the processing

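The 184 genes kept a median change below 0 and the 16 genes a median above 0 in *tabri1-a3bd*, against both genotypes, under all alternatives run, while the counts of called genes did not hold. The cause of these moves was not tested. The genes meeting the thresholds on the shifts numbered 727 and 87 in the first and second direction with a pseudocount of 0.1, 188 and 18 with a pseudocount of 1, and 155 and 13 with a threshold of 1. With the genotype median TPM in place of the mean they numbered 283 and 35, and 145 of the 184 and 13 of the 16 genes kept were among them. With a single library left out the numbers ranged from 205 to 401 and from 21 to 50. The lowest value of each direction was that without *tabri1-a1bd* replicate 1 and the highest those without *tabri1-a2bd* replicate 3 and *tabri1-a1bd* replicate 3.

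In *tabri1-a3bd* against *TaBRI1-NS*, a change of over 2-fold left 1032 of all genes called (600 higher, 432 lower), 1 of the 16 and 3 of the BR list. All 23 libraries in the fit gave 1918 (1376 higher, 542 lower), with 19 of the 184, 1 of the 16 and 4 of the BR list. A separate fit gave 1090 (679 higher, 411 lower), with 19, 2 and 1. Array weights gave 3229 (2244 higher, 985 lower) and 2 of the 16. Rescaled TPM gave 1845 higher and 2860 lower, 2 of the 16 and 7 of the BR list, and no filter gave 2 of the 16. Limma voom on the recovered reads called 2415 of all genes lower and moved the median of the 184 genes to -1.15.

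Against *tabri1-bd*, a change of over 2-fold left 718 (437 higher, 281 lower) and 0 of the 16, of which limma had 8 higher at an unadjusted p under 0.05. All 23 libraries gave 1902 (1514 higher, 388 lower), with 11 of the 184 and 0 of the 16, with 4 higher at an unadjusted p under 0.05. A separate fit gave 2622 (1801 higher) and 3 of the 16. Rescaled TPM gave 1795 higher and 2402 lower. Voom called 1910 of all genes lower and 9 of the 184, with a median of -0.91, no filter left 14 of the 184, and a pseudocount of 0.1 gave a median of -0.84.

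With a single library left out, the genes called against *TaBRI1-NS* ranged from 2672 to 4845 in all (1860 to 3467 higher, 768 to 1378 lower), from 21 to 52 of the 184, from 2 to 8 of the 16 and from 6 to 12 of the BR list, and the medians from -1.01 to -0.65 and from 0.46 to 0.54. Against *tabri1-bd* they ranged from 2068 to 4647 (1492 to 3405 higher, 540 to 1242 lower), from 10 to 27 and from 2 to 8, with medians from -0.77 to -0.53 and from 0.52 to 0.71. Of 36 calls of named genes, judged on adjusted p alone, 9 held under all alternatives and none changed direction. The call was lost in 155 of 683 refits. The limit of over 2-fold was not applied to these calls, although the 683 include rows of that setting, with 0 calls lost. Calls with a log2 change under 1, such as TraesCS6B03G0997900 at 0.695 against *TaBRI1-NS*, would not have met it.

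With the replicate number as a block, 57 and 33 of the 184 genes were called lower against *TaBRI1-NS* and *tabri1-bd*, and 3 and 5 of the 16 higher, of 4939 and 4371 genes called in all. Correlations of same-numbered deviations were 0.05 at most. Not all libraries matched their own number best against *TaBRI1-NS*, though they did against *tabri1-bd*. These small correlations do not settle whether the numbers pair the libraries. Of the 184 genes, 7 were listed at 0 in all *tabri1-a2bd* libraries.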
